A study of Mus musculus with 36 samples.

Results

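The liver transcripts of 50 genes that act in ribosome biogenesis or in the nucleolus were examined in 36 mice. The genes were picked by name from the 38283 rows of the count table, and each of the 50 was found once and was among the 13945 genes with enough counts to test. The mice were males aged 16 weeks on the C57Bl/6J background, either WT or heterozygous for the Pik3r1 Y657* allele (WT/Y657*), a germline knock-in of a premature stop codon in the p85α regulatory subunit of phosphoinositide 3-kinase. The allele was made by homologous recombination together with a neomycin cassette flanked by LoxP sites, was backcrossed, and was present in every cell of the animal. Livers were taken from 6 mice of each genotype fed chow ad libitum, from 6 fasted for 16 h, and from 6 that were fasted for 16 h and then refed chow for 6 h. Per the paper, fed tissues were collected before the overnight fast and the others at the end of fasting or of refeeding. Feeding state and time of harvest therefore cannot be told apart in any contrast between states. The comparisons ask how these genes follow feeding and fasting, and whether they do so alike in WT mice and in mice whose insulin signalling enzyme is truncated.

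Ribosomes are assembled in the nucleolus, where RNA polymerase I makes a long precursor that is cut, folded and modified into the ribosomal RNAs. Small nucleolar ribonucleoproteins guide the modification of this RNA, with methylation of the ribose by box C/D particles and conversion of uridine to pseudouridine by box H/ACA particles, while separate sets of assembly factors build the small and the large subunit. Making ribosomes is among the costliest activities of a cell, and in the liver it is known to respond to nutrients, insulin and growth signals. The members were assigned to 6 roles: 5 to RNA polymerase I and its regulators, 3 core proteins of box C/D particles, 4 of box H/ACA particles, 5 abundant nucleolar proteins, 15 small subunit factors and 18 large subunit factors. The first role includes, by assignment only, Pprc1, a coactivator related to PGC-1α.

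Library totals ranged from 8839488 to 19542775 counts. Levels are TMM-scaled CPM, that is, counts scaled to the same library size with a correction for the makeup of each library, and a gene is called where edgeR's quasi-likelihood test over all 13945 genes gave a Benjamini-Hochberg adjusted p below 0.05. The p-values measure the spread between mice. The counts of called members were also tried under alternatives. These were other tests, scalings and filters on low counts, and a fit of only the groups compared. A correction for exon length and leaving out 1 mouse at a time were further ones. Single calls were tried in this way only for members picked for a comparison by fixed rules, given at the end. Other single calls were not tried. Among them are those of Rrp9, Rrp12 and Wdr12, of Polr1b and Pprc1 on refeeding in WT/Y657* mice, and of genes outside the members. Single mice are named as in the labels, with ALC for fed, ONF for fasted and RF6 for refed mice and MT for WT/Y657*. In bulk liver, fewer cells of a type and less RNA per cell cannot be told apart. The 7 hepatocyte markers were detected in every group, and their summed level ranged from 50166 to 96987 CPM. Pik3r1 itself ranged from 74.5 to 182 CPM and was not called by genotype in any state. Its reads come from both alleles, and its level does not check the genotype. Gar1 had few reads, with 5 to 43 counts per library.

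In fed WT liver, per kilobase of annotated exon, the highest levels were those of Nop10, a core protein of box H/ACA particles, at 29.3 ± 1.34 RPKM (mean ± SD, n = 6), a level that divides CPM by exon length, and of Npm1, nucleophosmin, at 28.8 ± 2.96 RPKM. These 2 levels did not differ beyond their spread. The lowest were those of Nle1, a large subunit factor, at 0.861 ± 0.217 RPKM, and of Rrp1b, at 1.02 ± 0.173 RPKM. Not corrected for length, Ncl, which encodes nucleolin, gave the most reads of the 50 at 87.7 ± 8.97 CPM. Its annotated exons, including retained introns, cover 10188 bases.

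In WT mice, fasting lowered 22 of the 50 members and raised 1, so that 23 were called (46%), where 32% of all genes tested were called, 17.5% lower and 14.5% higher. Fasted mice of both genotypes carried mouse numbers of a low or a high series, and fed mice carried numbers between them. Fasting and the series of mouse numbers therefore cannot be told apart in the fasted against fed contrasts. The median log2 fold change of the members was -0.22, against 0.010 over all genes, and 43 of 50 were negative. Falls were spread over the roles, with 3 of 5 RNA polymerase I members, 3 of 3 box C/D proteins, 1 of 4 box H/ACA proteins, 2 of 5 abundant nucleolar proteins, 7 of 15 small subunit factors and 6 of 18 large subunit factors called lower. Markers of other liver cells moved too, with 1 of 7 proliferating cell markers and 2 of 6 stellate cell markers called lower and 3 of 6 sinusoidal endothelial markers called higher. The summed proliferating cell markers were at 26.1, 27.6 and 34.1 CPM in fed WT mice (lowest, median and highest) and 21.1, 24.4 and 25.6 CPM in fasted WT mice. The summed endothelial markers were at 230.2, 293 and 316 CPM fed and 316, 334 and 377 CPM fasted, and the stellate cell markers at 282, 394 and 449 CPM and 332, 356 and 403 CPM. Kupffer cell and lymphocyte markers moved up without a call, with all 7 Kupffer cell markers and all 5 tested lymphocyte markers positive and none called. Neutrophil markers went the other way at very low levels, and only 2 of 5 had enough counts to test. The 5 summed to 0.734, 2.76 and 5.92 CPM fed and 0.286, 1.73 and 2.46 CPM fasted. The median sum of the Kupffer cell markers was 275 CPM fed and 352 CPM fasted, and the groups overlapped. The lymphocyte markers summed to 10.5, 13.5 and 18.3 CPM and 15.8, 19.7 and 25.5 CPM. Of the hepatocyte markers 2 of 7 were called higher and 1 lower, and 1 of 5 cholangiocyte and 1 of 5 erythroid markers were called lower. No marker was without counts in all 36 libraries, and the part of these cells in the result was not tested. In 10 members that were lower and 1 that was higher, no fasted WT mouse overlapped a fed one, 22% of the members against 17.6% of all genes.

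**Figure D1:**
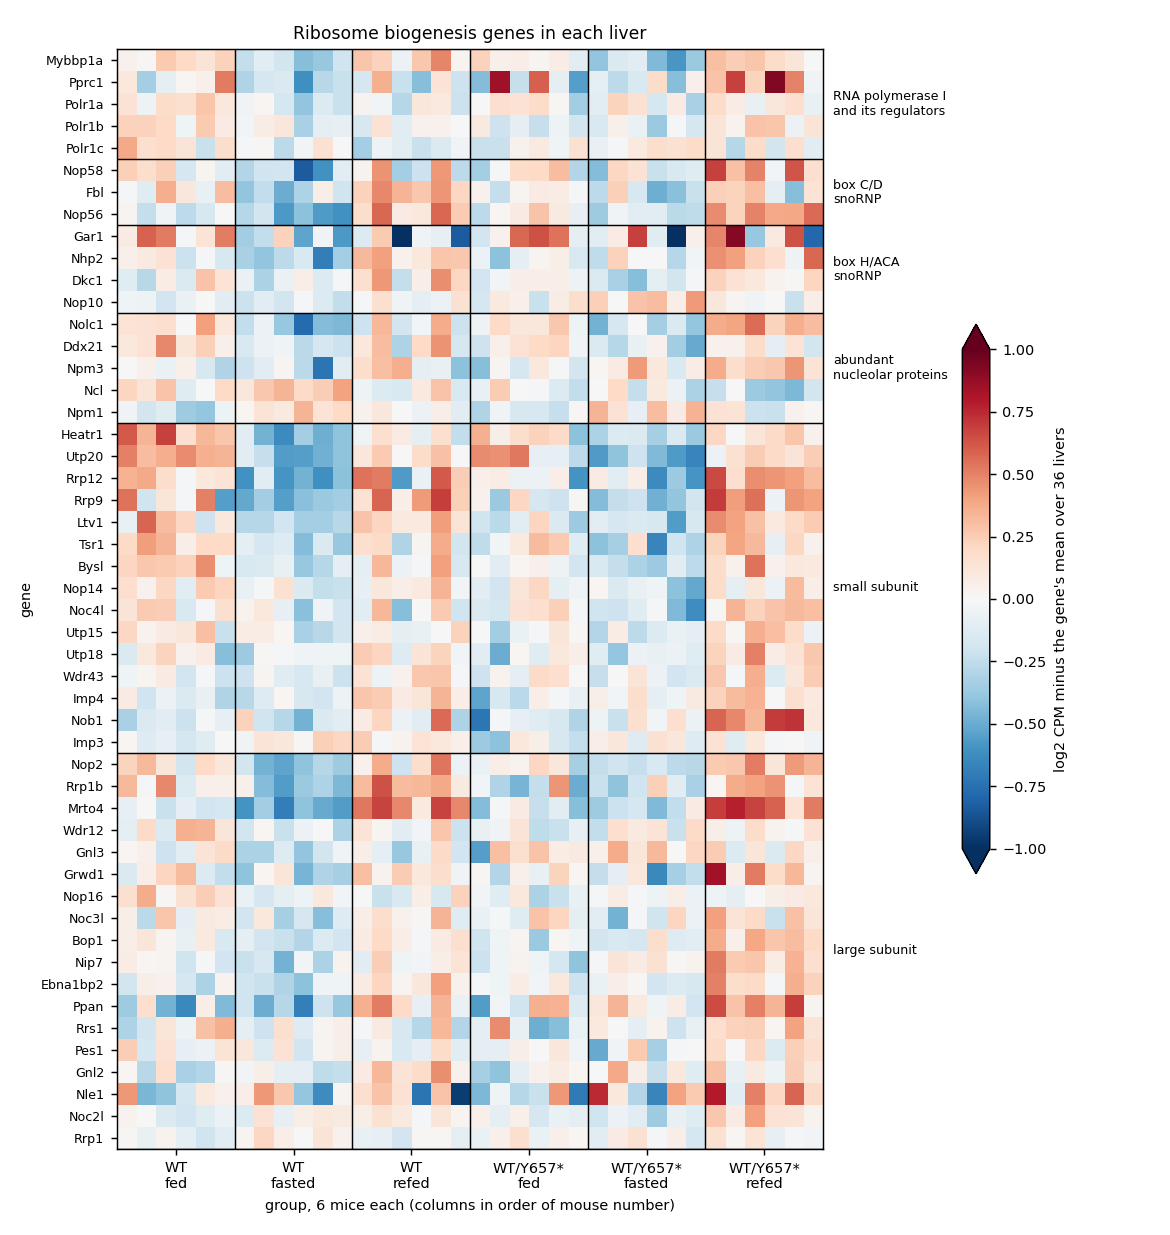
Heat map of all 50 members (rows, ordered by role and then by their log2 fold change on fasting in WT mice) in each of the 36 livers (columns, 6 mice per group in order of mouse number). Colour is log2 CPM minus the gene's mean in the 36 livers, clipped at -1 and 1. The fasted WT columns are mostly blue and the refed WT/Y657* columns mostly red, while Npm1 is redder in the fasted than in the fed columns.

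The largest fall was that of Heatr1, a factor of the small subunit processome that also promotes transcription by RNA polymerase I. In fed WT mice it was at 30.7, 34.5 and 44 CPM (lowest, median and highest of 6) and in fasted WT mice at 17.6, 20.2 and 25.4 CPM (log2 fold change -0.81, SE 0.10, adjusted p = 6.18e-08). Every fasted WT mouse was below every fed one. Utp20, another large protein of the small subunit processome, went from 41.4, 42.8 and 47.3 CPM to 22.6, 24.5 and 30.9 CPM (log2 fold change -0.77, SE 0.11, adjusted p = 4.23e-07), again with no overlap. Rrp12, which serves in the export of both subunits, fell by 0.66 on the log2 scale (SE 0.15, adjusted p = 0.000952). Rrp9, a protein of the U3 particle, fell by 0.54 (SE 0.15, adjusted p = 0.00417), with fed values of 6.06, 9.27 and 13.1 CPM that reached down to the fasted values of 6.05, 6.77 and 7.02 CPM.

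Among the large subunit factors, Nop2, a methyltransferase of the 28S RNA, showed the smallest p. It was at 19, 24.1 and 27 CPM in fed WT mice and 14.9, 16.6 and 18.9 CPM in fasted WT mice (log2 fold change -0.51, SE 0.10, adjusted p = 0.000135). The ranges of the 2 groups stood just apart. Bop1, which with Pes1 and Wdr12 forms the PeBoW complex of large subunit maturation, was at 26.1, 30.1 and 31.6 CPM fed and 23.6, 25.4 and 27.3 CPM fasted (log2 fold change -0.20, SE 0.073, adjusted p = 0.0277), with overlap. Its call was lost under 5 of 21 alternatives, with no filter and without ALC_WT_847, ALC_WT_848, ALC_WT_856 or ONF_WT_918 (adjusted p up to 0.0672). Of its partners, Wdr12 fell by 0.26 (SE 0.10, adjusted p = 0.038), and Pes1 had a log2 fold change of -0.038 (SE 0.095, adjusted p = 0.804).

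The 3 core proteins of box C/D particles fell together. Fbl, fibrillarin, the methyltransferase of these particles, was at 8.78, 9.9 and 12.4 CPM in fed WT mice and at 6.75, 7.86 and 9.98 CPM in fasted ones (log2 fold change -0.36, SE 0.12, adjusted p = 0.0198). Nop56, a scaffold protein of the same particle, was at 15.8, 17.7 and 19.4 CPM fed and at 12.5, 13.5 and 16.7 CPM fasted (log2 fold change -0.32, SE 0.10, adjusted p = 0.0105). Fed and fasted WT mice overlapped in both genes, and the call of Fbl was lost under 3 of 21 alternatives, without ALC_WT_849, ALC_WT_860 or ONF_WT_825 (adjusted p up to 0.0627). Of the box H/ACA proteins, Nhp2 fell from 12.8, 15.1 and 16.5 CPM to 9.18, 11.8 and 13.4 CPM (log2 fold change -0.34, SE 0.11, adjusted p = 0.0106), whereas Dkc1, dyskerin, the pseudouridine synthase of the particle, went from 14.1, 16.9 and 21 CPM to 13.7, 16.4 and 18 CPM and was not called (log2 fold change -0.090, SE 0.10, adjusted p = 0.525).

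Both largest subunits of RNA polymerase I were called lower in fasted WT mice by small amounts. Polr1a was at 28.2, 32.5 and 35.3 CPM fed and 22.1, 26.2 and 29.6 CPM fasted (log2 fold change -0.29, SE 0.093, adjusted p = 0.0148), and Polr1b at 20.3, 24.4 and 25.2 CPM fed and 16.7, 20.2 and 22.7 CPM fasted (log2 fold change -0.21, SE 0.081, adjusted p = 0.0394). In each, the fed and the fasted range overlapped. The call of Polr1b was lost under 12 of 21 alternatives (adjusted p 0.0186 to 0.125), namely with the likelihood ratio test, with library size scaling, with no filter, with only the groups compared, and without ALC_WT_847, ALC_WT_848, ALC_WT_849, ALC_WT_856, ONF_WT_807, ONF_WT_918, ONF_WT_919 or ONF_WT_920. That of Polr1a was lost under 1 of 21, with the exon length correction (adjusted p up to 0.0615). Mybbp1a, a nucleolar binding partner of RNA polymerase I and of the MYB protein, fell from 52.5, 58.2 and 62.3 CPM to 38.8, 44.7 and 48.5 CPM (log2 fold change -0.40, SE 0.082, adjusted p = 0.000237), with no overlap. Pprc1, a coactivator related to PGC-1α, was at 6.07, 7.91 and 11.2 CPM fed and 5.02, 6.49 and 6.98 CPM fasted and was not called (log2 fold change -0.36, SE 0.20, adjusted p = 0.165).

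The abundant nucleolar proteins divided. Nolc1, which binds small nucleolar ribonucleoproteins, fell from 24.6, 27.3 and 32.9 CPM to 14.4, 18.6 and 23.7 CPM (log2 fold change -0.54, SE 0.11, adjusted p = 0.000133), with no overlap. Npm1, which shuttles ribosomal particles and histones, was the single member that rose, from 66.6, 78.3 and 84.8 CPM to 88.3, 95.5 and 110.1 CPM (log2 fold change 0.34, SE 0.079, adjusted p = 0.000912), and no fasted WT mouse was as low as a fed one. Nucleolin was not called, with Ncl at 73.8, 90.1 and 98 CPM fed and 87.3, 96.3 and 107 CPM fasted (log2 fold change 0.14, SE 0.091, adjusted p = 0.254).

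Fasting changed 9 members (18%) in WT/Y657* mice, 7 lower and 2 higher, where 32.9% of all genes were called, 17.7% lower and 15.2% higher. The median of the members was -0.068, against -0.0079 over all genes. No member separated the fed from the fasted WT/Y657* mice without overlap, where 11.5% of all genes did. Utp20 went from 27.8, 38.6 and 48.1 CPM to 21.1, 23.5 and 28.8 CPM (log2 fold change -0.67, SE 0.11, adjusted p = 5.13e-06), and 5 of the 6 fasted mice were below every fed one. Mybbp1a fell from 48.2, 54.2 and 61 CPM to 34.7, 39.9 and 48.2 CPM (log2 fold change -0.39, SE 0.082, adjusted p = 0.000289), close to its fall in WT mice.

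Heatr1 was at 20.6, 31.2 and 35 CPM in fed WT/Y657* mice and at 21.1, 23.4 and 24.9 CPM in fasted ones (log2 fold change -0.36, SE 0.10, adjusted p = 0.00549). The lowest fed mouse was below every fasted one. Nolc1 was at 23.8, 26.8 and 29.8 CPM fed and 17.8, 20.7 and 24.6 CPM fasted (log2 fold change -0.35, SE 0.11, adjusted p = 0.00987). Npm1 rose from 70.6, 77.7 and 87.6 CPM to 82.1, 102 and 111 CPM (log2 fold change 0.34, SE 0.079, adjusted p = 0.000782), by the same log2 amount as in WT mice, and Nop10 rose from 29.4, 35.8 and 38.8 CPM to 34.4, 41.2 and 46 CPM (log2 fold change 0.22, SE 0.074, adjusted p = 0.0176). This call of Nop10 was lost under 7 of 21 alternatives (adjusted p 0.00668 to 0.0873), with library size scaling, with no filter, with only the groups compared, with the exon length correction, and without ONF_MT_923, ALC_MT_857 or ALC_MT_866. Of the proliferating cell markers, 4 of 7 were called lower, as were 3 of 6 stellate cell markers. The proliferating cell markers summed to 21.6, 34.4 and 58.6 CPM in fed and 21.1, 22.4 and 39 CPM in fasted WT/Y657* mice and the stellate cell markers to 391, 461 and 579 CPM fed and 364, 413 and 532 CPM fasted. No Kupffer cell marker was called, and their sum was 221, 495 and 781 CPM fed and 279, 358 and 472 CPM fasted. Of the hepatocyte markers 2 of 7 were called higher, and 1 of 5 cholangiocyte and 1 of 5 erythroid markers lower. Their part in the result was not tested.

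Called lower on fasting in both genotypes were 6 members, Nolc1, Utp20, Tsr1, Mybbp1a, Ddx21 and Heatr1, and 16 were called lower in WT mice but not in WT/Y657* mice. The same combinations were not counted over all genes. The difference between the 2 responses was tested by an interaction term. It called no member of 50 by edgeR's quasi-likelihood test, where 4.35% of all genes were called (2.59% higher and 1.76% lower), and the lowest adjusted p was 0.0556 for Nop16, a large subunit factor, with a difference of 0.34 (SE 0.11). Heatr1 followed with 0.45 (SE 0.14, adjusted p = 0.0611). Before adjustment 16 members had a p below 0.05 (32%, against 19.1% of all genes), and 42 of the 50 differences were positive, with a median of 0.19 against -0.012 over all genes. Nop16 and Heatr1 were called by DESeq2 and by edgeR with a filter of at least 10 counts in every library. By edgeR 1 member was called without any of 7 of 24 mice, ONF_WT_807, ONF_WT_919, ALC_WT_849, ALC_WT_850, ALC_MT_857, ALC_MT_859 or ALC_MT_866. With scaling by library size alone, 36 of the 50 differences were positive, with a median of 0.12 against -0.072 over all genes. The interaction includes the fed genotypes, which were compared partly across blocks of mouse numbers.

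**Figure D2:**
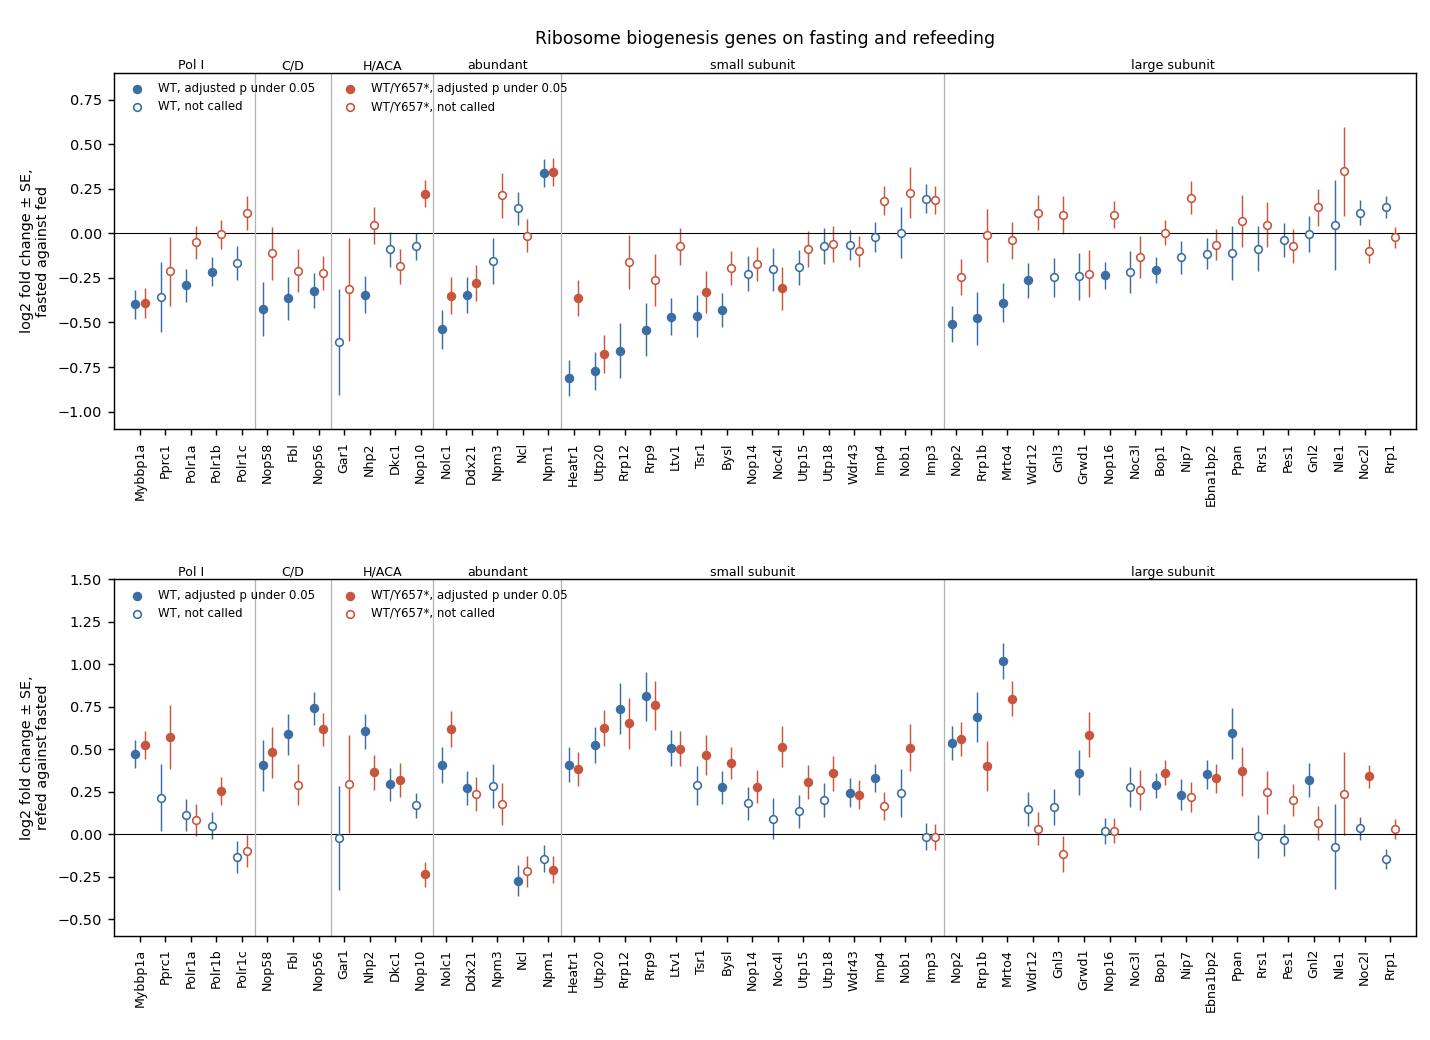
Log2 fold change with its standard error (vertical axis) of each member (horizontal axis, by role) for fasted against fed mice (upper panel) and refed against fasted mice (lower panel), in WT (blue) and WT/Y657* (red) mice, 6 per group. Filled points are called by edgeR's quasi-likelihood test and open points are not. In the upper panel 22 WT points are filled below 0 and 1 above it, and in the lower panel 25 WT and 29 WT/Y657* points are filled above 0.

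Refeeding for 6 h raised many of these genes in both genotypes. In WT mice 25 of 50 rose and 1 fell, 26 calls in all (52%), where 30.2% of all genes were called, 16.5% higher and 13.7% lower. In WT/Y657* mice 29 rose and 2 fell, 31 calls (62%), where 31.3% of all genes were called, 17.1% higher and 14.2% lower. The median log2 fold change of the members was 0.27 in WT and 0.31 in WT/Y657* mice, against 0.0017 and -0.0080 over all genes. The fasted and refed mice carried mouse numbers of a low and a high series. Within the low and the high series, the median member was higher in refed than in fasted WT mice by 0.20 and 0.31. In WT/Y657* mice it was higher by 0.31 and 0.29 (3 mice per group and series throughout). In the high series, however, every refed mouse had a lower number than every fasted one. Feeding state and mouse number therefore cannot be told apart there. In the low series the numbers of fasted and refed mice were mixed. The refeeding contrasts share the fasted mice with the fasting contrasts. A gene that fell in one and rose in the other therefore did not do so in independent mice. Of the 22 members that fell on fasting in WT mice, 17 rose on refeeding in WT mice, and 20 members rose in both genotypes. These combinations of calls were not counted over all genes, so no share stands beside them. Endothelial markers moved with the refeeding contrasts, with 2 of 6 called lower in WT mice and 3 of 6 in WT/Y657* mice. Their sum in refed mice was 261, 287 and 329 CPM in WT and 262, 275 and 289.6 CPM in WT/Y657* mice, against 307, 354 and 377 CPM in fasted WT/Y657* mice, and no marker of this list was called higher. Erythroid markers were called lower in 1 of 5 in WT and 2 of 5 in WT/Y657* mice. They summed to 231, 268 and 425 CPM fasted and 166, 196 and 313 CPM refed in WT mice, and to 242, 298 and 329 CPM and 143, 196 and 284 CPM in WT/Y657* mice. Hepatocyte markers were called lower in 2 of 7 and 1 of 7. Their sum was 66173, 88703 and 96987 CPM fasted and 57485, 67806 and 82274 CPM refed in WT mice and 70005, 81752 and 87313 CPM and 60589, 69995 and 78409 CPM in WT/Y657* mice. In each genotype 1 of 6 stellate cell and 1 of 7 proliferating cell markers were called higher, with 2 stellate cell markers called lower in WT mice, 1 in WT/Y657* mice, and 1 proliferating cell marker lower in each. The part of these cells in the result was not tested.

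Mrto4, a placeholder for a stalk protein on the maturing large subunit, had the largest log2 fold change of the 50 in both genotypes. It was at 11.6, 13 and 14.8 CPM in fasted WT mice and 20.2, 26.8 and 30.3 CPM in refed WT mice (log2 fold change 1.02, SE 0.11, adjusted p = 2.44e-09). It went in WT/Y657* mice from 13.8, 16.1 and 19.98 CPM to 20.7, 29.3 and 32.5 CPM (log2 fold change 0.80, SE 0.10, adjusted p = 1.89e-07). In neither genotype did a refed mouse overlap a fasted one. This held for 13 members in WT mice (26%, against 16.9% of all genes) and for 15 in WT/Y657* mice (30%, against 11.9%), all of them higher when refed. Rrp9 rose by 0.81 (SE 0.14, adjusted p = 3.64e-05) in WT mice and by 0.76 (SE 0.14, adjusted p = 8.01e-05) in WT/Y657* mice, and Rrp12 by 0.74 (SE 0.15, adjusted p = 0.000253) and 0.65 (SE 0.15, adjusted p = 0.000832).

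All 3 box C/D proteins rose in refed WT mice. Nop56 reached 20.1, 22.1 and 28.4 CPM in refed WT mice (log2 fold change 0.74, SE 0.10, adjusted p = 2.19e-07) and 22.2, 25.6 and 28.3 CPM in refed WT/Y657* mice, from 14.8, 16.7 and 18.5 CPM fasted (log2 fold change 0.62, SE 0.10, adjusted p = 4.04e-06). No refed mouse overlapped a fasted mouse of its genotype. Fbl reached 11.1, 11.9 and 13.4 CPM in refed WT mice (log2 fold change 0.59, SE 0.12, adjusted p = 0.000249), without overlap. Fbl in WT/Y657* mice was at 6.78, 8.05 and 11.3 CPM fasted and 7.06, 10.8 and 11.8 CPM refed and was not called (log2 fold change 0.29, SE 0.12, adjusted p = 0.0639). Nop56 had counts that were not whole in 17 libraries, and its locus holds several small nucleolar RNA genes.

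Of the box H/ACA proteins, Nhp2 rose to 15.3, 18.1 and 19.9 CPM in refed WT mice (log2 fold change 0.61, SE 0.10, adjusted p = 2.22e-05) and Dkc1 to 14.5, 19.6 and 23.7 CPM (log2 fold change 0.29, SE 0.10, adjusted p = 0.0202). The call of Dkc1 was lost under 3 of 22 alternatives, without ONF_WT_824, RF6_WT_816 or RF6_WT_900 (adjusted p up to 0.0804). Nhp2 in WT/Y657* mice went from 12.2, 14.8 and 17.5 CPM to 14.4, 18.7 and 22.3 CPM (log2 fold change 0.36, SE 0.10, adjusted p = 0.00582) and Dkc1 from 12.8, 15.3 and 16.9 CPM to 17.3, 18.7 and 20.2 CPM (log2 fold change 0.32, SE 0.10, adjusted p = 0.0112). Refed and fasted mice did not overlap for Nhp2 in WT mice and for Dkc1 in WT/Y657* mice. Nop10 went the other way in WT/Y657* mice, falling to 29.3, 34.6 and 37.1 CPM (log2 fold change -0.24, SE 0.074, adjusted p = 0.0123; not called with library size scaling, adjusted p = 0.167), whereas in WT mice it was at 28.9, 30.6 and 34.1 CPM fasted and 32.1, 33.5 and 38.3 CPM refed and was not called (log2 fold change 0.17, SE 0.074, adjusted p = 0.0808).

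Mybbp1a rose to 49.9, 61.9 and 73.2 CPM in refed WT mice (log2 fold change 0.47, SE 0.082, adjusted p = 2.88e-05) and to 51.9, 60.6 and 64.1 CPM in refed WT/Y657* mice (log2 fold change 0.52, SE 0.082, adjusted p = 4.75e-06), above every fasted mouse of the same genotype. The polymerase subunits moved little in WT mice, with Polr1a at 23.9, 29.3 and 31.6 CPM (log2 fold change 0.11, SE 0.093, adjusted p = 0.388) and Polr1b at 18.8, 21.3 and 23.2 CPM (log2 fold change 0.050, SE 0.081, adjusted p = 0.687). Polr1b in WT/Y657* mice rose by 0.26 (SE 0.081, adjusted p = 0.0143). Pprc1 was at 5.71, 6.78 and 9.92 CPM in refed WT mice (log2 fold change 0.21, SE 0.20, adjusted p = 0.443). In refed WT/Y657* mice it was at 7.53, 10.2 and 14.8 CPM and rose by 0.57 (SE 0.19, adjusted p = 0.0197).

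Bop1 rose to 28.9, 30.8 and 33.4 CPM in refed WT mice (log2 fold change 0.29, SE 0.072, adjusted p = 0.00229), with every refed WT mouse above every fasted one. Nolc1 reached 28.8, 31.9 and 36.5 CPM in refed WT/Y657* mice (log2 fold change 0.62, SE 0.11, adjusted p = 1.7e-05), also without overlap. Some abundant members fell. Ncl fell to 72.2, 75.4 and 97.9 CPM in refed WT mice (log2 fold change -0.27, SE 0.091, adjusted p = 0.0206), where 5 of the 6 refed mice were below every fasted one. That call was lost under 5 of 22 alternatives (adjusted p 0.00489 to 0.0842), with library size scaling, with the exon length correction, and without ONF_WT_920, RF6_WT_816 or RF6_WT_828. Npm1 went to 81, 88.5 and 93.9 CPM in WT mice and was not called (log2 fold change -0.14, SE 0.078, adjusted p = 0.167), and fell to 74.3, 88.5 and 96 CPM in WT/Y657* mice (log2 fold change -0.21, SE 0.078, adjusted p = 0.0386). The call of Npm1 was lost under 10 of 22 alternatives (adjusted p 0.0062 to 0.279). With library size scaling its log2 fold change was -0.12, and the call was also lost with the likelihood ratio test, with no filter, with only the groups compared, and without ONF_MT_806, ONF_MT_921, ONF_MT_923, RF6_MT_817, RF6_MT_897 or RF6_MT_899.

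**Figure D3:**
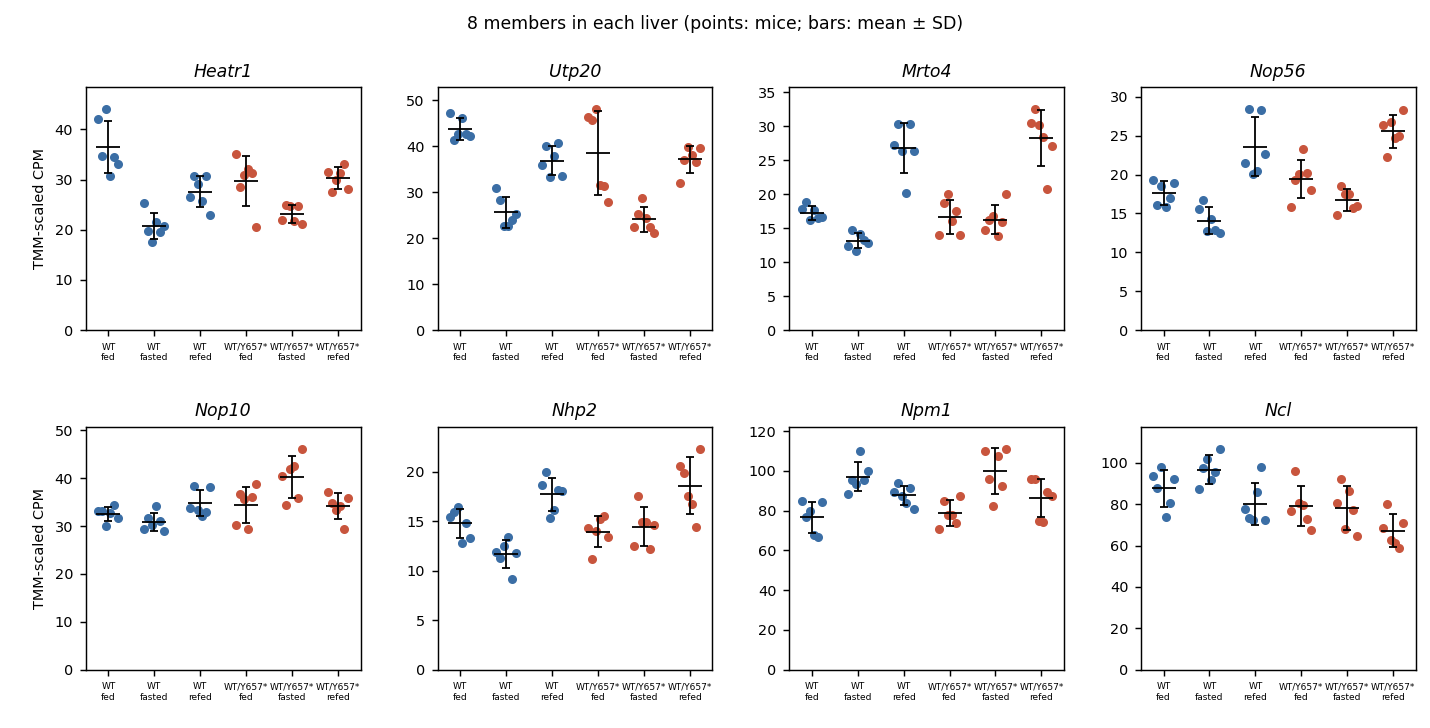
TMM-scaled CPM (vertical axis, from 0) of 8 members in each liver, by group (horizontal axis), WT in blue and WT/Y657* in red. Points are single mice in order of mouse number, and bars are the mean ± SD of 6. Heatr1, Utp20, Mrto4 and Nop56 fall in fasted WT mice and rise on refeeding in both genotypes, Npm1 is highest in the fasted groups, and Nop10 is highest in fasted WT/Y657* mice.

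Promoter windows of 250 bases before and 50 bases after the start were found for 44 of the 50 members in RefSeq (GRCm38.p6), and were not found for Npm1, Fbl, Rrp12, Rrs1, Bop1 and Gnl2. The E-box CACGTG, the site bound by MYC and related factors, occurred in 11 of 44 windows (25%), in 11.7% of the windows of tested genes, members among them, and in 8.09% of all 27025 windows. In 8 of these 11 it began 2 to 40 bases after the first transcribed base, which was so in 16% of the tested genes with the motif. The ETS motif CCGGAAG, searched like the others on both strands, occurred in 15 of 44 (34.1%, against 18.9% of tested genes), the YY1 core GATGGCG in 6 (13.6%, against 7.1%), the NRF1 core GCATGCG in 2 (4.55%, against 7.03%) and the TATA box TATAAA in 3 (6.82%, against 9.34%). A match is a description of the letters and not a bound site.

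Around the E-box, which is in capitals, 30 bases are given for the 6 members that had one and rose on refeeding in both genotypes, each written 5′ to 3′ on the strand of its gene. The stretch of Nop2 lies before the first transcribed base, with its E-box beginning 60 bases upstream, and the others lie after it, with the E-box beginning 34 bases after the first transcribed base in Grwd1, 28 in Ltv1, 40 in Mybbp1a, 37 in Utp20 and 17 in Wdr43. The coordinates are chr7:45830740-45830769 (minus strand) for Grwd1, chr10:13193092-13193121 (minus) for Ltv1, chr11:72441347-72441376 (plus) for Mybbp1a, chr6:125131811-125131840 (plus) for Nop2, chr10:88826765-88826794 (minus) for Utp20 and chr17:71616220-71616249 (plus) for Wdr43.
Grwd1: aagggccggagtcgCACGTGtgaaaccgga
Ltv1: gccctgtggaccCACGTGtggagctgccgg
Mybbp1a: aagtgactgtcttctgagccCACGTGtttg
Nop2: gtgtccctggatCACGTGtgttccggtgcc
Utp20: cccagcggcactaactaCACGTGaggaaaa
Wdr43: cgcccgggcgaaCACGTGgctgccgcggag

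Compared with mice fed throughout, refed WT mice had 9 members called (18%), 6 higher and 3 lower, where 27.5% of all genes were called, 13.2% higher and 14.3% lower. With scaling by library size alone the split was 13 higher and 1 lower. Refed WT/Y657* mice had 20 members called (40%), all higher than in fed WT/Y657* mice, where 26.1% of all genes were called, 13% higher and 13.1% lower. The medians were 0.048 and 0.22, against 0.016 and -0.0016 over all genes. Higher in both genotypes were 5 members, Nop56, Ppan, Ebna1bp2, Imp4 and Mrto4, and 15 more were called in WT/Y657* mice but not in WT mice. Whether these 2 contrasts differ was not tested, and such combinations of calls were not counted over all genes. These contrasts moved with exon length over all genes, with a median log2 fold change of 0.12 in the 4595 shortest genes and -0.090 in the 4592 longest ones in WT mice, and 0.092 and -0.096 in WT/Y657* mice. With a smooth correction for exon length, chosen after the data were seen, 8 members were called in WT mice and 15 in WT/Y657* mice. Fed mice carried mouse numbers between the low and the high series, so the series of mouse numbers and the fed state cannot be told apart.

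Markers of other cells moved with these contrasts too. The summed proliferating cell markers of refed WT mice, 20.3, 22.5 and 23.2 CPM, were all below those of fed WT mice, and 2 of 7 were called lower in each genotype. Of the stellate cell markers 3 of 6 were called lower in each genotype, with refed sums of 303, 329 and 432 CPM in WT and 296, 348 and 399.8 CPM in WT/Y657* mice. Erythroid markers, 1 of 5 called lower in each genotype, summed to 221, 288 and 309 CPM in fed WT and 230.2, 309.6 and 412 CPM in fed WT/Y657* mice, and in each genotype the median refed sum was below every fed one. Hepatocyte markers were called lower in 3 of 7 in WT and 2 of 7 in WT/Y657* mice and cholangiocyte markers in 2 of 5 and 0 of 5, and 1 of 7 Kupffer cell markers was called higher in each genotype. Of the endothelial markers 1 of 6 was called higher in WT and 1 lower in WT/Y657* mice, and 1 of 5 lymphocyte markers was called lower in WT/Y657* mice. Their part in the result was not tested.

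Relative to fed WT mice, Mrto4 was higher in refed WT mice by 0.63 (SE 0.10, adjusted p = 1.85e-05), with fed values of 16.1, 17.2 and 18.9 CPM below all refed ones. Nop56 was higher by 0.42 (SE 0.10, adjusted p = 0.00104), also without overlap. Imp4, a protein of the U3 particle, was at 21, 24 and 27.4 CPM fed and 27.1, 29.6 and 32.7 CPM refed (log2 fold change 0.31, SE 0.082, adjusted p = 0.00472), and Ppan, a large subunit factor, at 6.93, 8.28 and 12.3 CPM and 10.3, 13.2 and 15.7 CPM (log2 fold change 0.48, SE 0.15, adjusted p = 0.0131). Both genes had overlapping ranges.

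In WT mice Heatr1 was lower refed than fed, at 23, 27.8 and 30.8 CPM refed (log2 fold change -0.40, SE 0.10, adjusted p = 0.00241 against fed). Polr1c, a subunit shared by RNA polymerases I and III, was at 12, 15.8 and 18.3 CPM in fed and 11, 12.8 and 13.7 CPM in refed WT mice (log2 fold change -0.30, SE 0.095, adjusted p = 0.0156). Nop16 was at 22.9, 25.2 and 29.3 CPM fed and 19.4, 21.4 and 26.5 CPM refed (log2 fold change -0.22, SE 0.074, adjusted p = 0.0261). All 3 had refed mice within the fed range. The call of Nop16 was lost under 8 of 21 alternatives (adjusted p 0.000977 to 0.167), with library size scaling, which gave -0.14, with no filter, with only the groups compared, and without ALC_WT_848, ALC_WT_856, RF6_WT_816, RF6_WT_828 or RF6_WT_900, and that of Polr1c under 2 of 21, with library size scaling and without ALC_WT_847 (adjusted p up to 0.0845). Utp20 was below every fed WT mouse in all 6 refed WT mice, at 33.4, 36.9 and 40.7 CPM, but was not called (log2 fold change -0.25, SE 0.11, adjusted p = 0.0781).

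In WT/Y657* mice, Mrto4 was at 13.9, 16.8 and 19.98 CPM fed and higher by 0.76 when refed (SE 0.10, adjusted p = 8.54e-07). Nob1, the endonuclease that makes the end of the 18S RNA, was at 3.41, 5.16 and 5.65 CPM fed and 6.14, 8.31 and 9.5 CPM refed (log2 fold change 0.74, SE 0.14, adjusted p = 0.000118). Bop1 went from 22.5, 28.2 and 29.6 CPM to 30.1, 35.6 and 38 CPM (log2 fold change 0.37, SE 0.071, adjusted p = 0.000185). Nip7, which binds precursor RNA during assembly, was at 9.01, 11.1 and 12.3 CPM fed and 12.6, 14.4 and 17.2 CPM refed (log2 fold change 0.42, SE 0.089, adjusted p = 0.000498). In these 4 genes, and in Npm3 and Rrp12, no refed WT/Y657* mouse was as low as any fed one, 12% of the members against 9.11% of all genes. The same held in WT mice for Nop56 and Mrto4, and in the other direction for Utp20, together 6% of the members against 14% of all genes.

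The genotypes were compared within each state. In fasted mice 5 members were called (10%), 4 higher and 1 lower in WT/Y657* mice, where 13.1% of all genes were called, 6.43% higher and 6.63% lower. The members' share was below that of all genes. The median was 0.10, against 0.0021 over all genes. Nop10 was at 28.9, 30.6 and 34.1 CPM in fasted WT mice and 34.4, 41.2 and 46 CPM in fasted WT/Y657* mice, with no overlap (log2 fold change 0.38, SE 0.074, adjusted p = 0.000661). Gnl3, nucleostemin, a GTPase of the nucleolus, was at 20.2, 22.4 and 26 CPM and 26.6, 29.9 and 34.5 CPM, also with no overlap (log2 fold change 0.41, SE 0.11, adjusted p = 0.00896). The separation was complete for Ppan too, at 6.75, 8.67 and 9.54 CPM and 9.56, 11.6 and 13.9 CPM (log2 fold change 0.44, SE 0.15, adjusted p = 0.0473), and these 3 were the members without overlap (6%, against 5.04% of all genes).

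Nhp2 was at 9.18, 11.8 and 13.4 CPM in fasted WT and 12.2, 14.8 and 17.5 CPM in fasted WT/Y657* mice (log2 fold change 0.31, SE 0.11, adjusted p = 0.0452). Ncl was the member called lower, at 87.3, 96.3 and 107 CPM in WT and 64.6, 79 and 92.3 CPM in WT/Y657* mice (log2 fold change -0.31, SE 0.092, adjusted p = 0.0215). Both groups overlapped in each of these genes. Ncl, Gnl3 and Ppan host small nucleolar RNAs in their introns and have annotated exons that overlap other genes on the same strand. The rows of small nucleolar RNAs held at most 9 counts in any library. The call of Nhp2 was lost under 15 of 22 alternatives and that of Ppan under 11, with adjusted p from 0.0198 to 0.233 and from 0.0147 to 0.115 over all alternatives. The call of Ncl (0.00945 to 0.0663) was lost under 3 of 22, without ONF_WT_920, ONF_MT_827 or ONF_MT_923. Nop10 (9.9e-05 to 0.00786) and Gnl3 (0.00393 to 0.026) stayed called in each. Of the cell markers, 1 of 7 hepatocyte markers was called lower and 1 of 6 endothelial and 1 of 6 stellate cell markers higher in fasted WT/Y657* mice, and their part in the result was not tested.

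The other members named for the fasted comparison were not called. Nop56 had a log2 difference between genotypes of 0.24 (SE 0.10, adjusted p = 0.103), Imp4 of 0.16 (SE 0.083, adjusted p = 0.192) and Polr1a of 0.14 (SE 0.093, adjusted p = 0.363). The differences of Npm1, Fbl, Dkc1, Polr1b, Pprc1 and Bop1 were 0.040, 0.045, -0.11, -0.064, 0.18 and 0.10, with adjusted p from 0.417 to 0.861. Within the low and the high series of mouse numbers, the difference in fasted mice was 0.35 and 0.40 for Nop10, 0.44 and 0.38 for Gnl3, 0.32 and 0.29 for Nhp2, 0.51 and 0.37 for Ppan, and -0.26 and -0.37 for Ncl on the log2 CPM scale (3 mice against 3 in each).

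**Figure D4:**
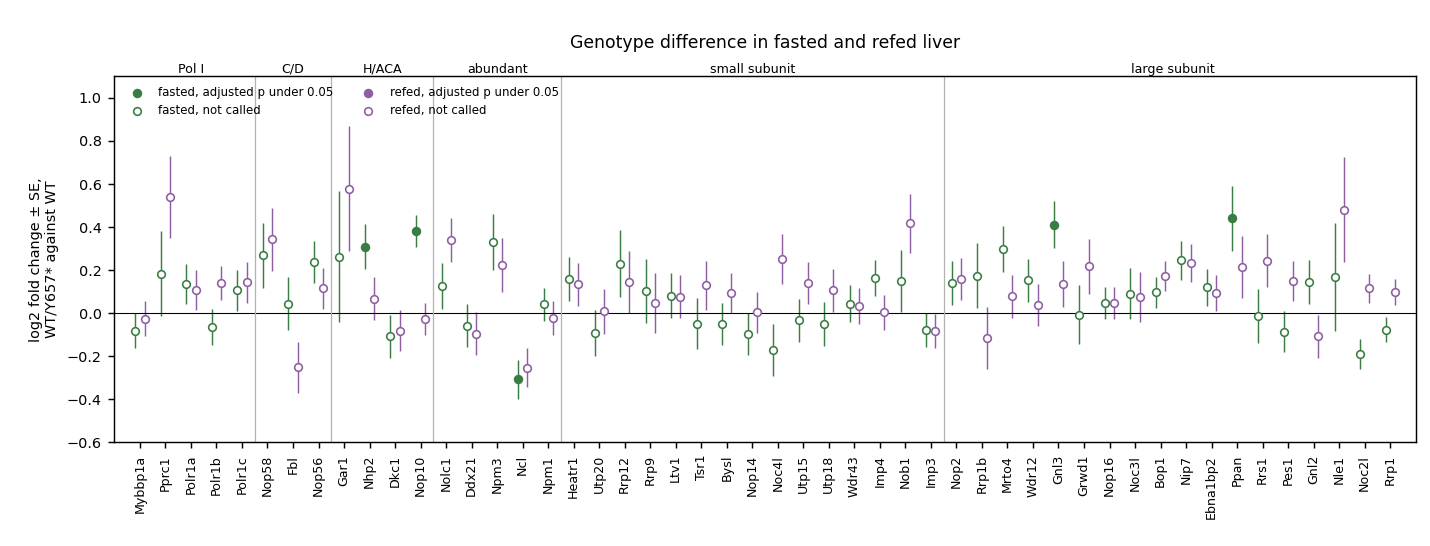
Log2 fold change of WT/Y657* against WT mice with its standard error (vertical axis) for each member (horizontal axis, by role), in fasted (green) and refed (purple) liver, 6 mice per group. Filled points are called by edgeR's quasi-likelihood test. The 5 filled points are fasted Nop10, Nhp2, Gnl3 and Ppan above 0 and fasted Ncl below it, and no refed point is filled.

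In fed mice 1 member was called (2%), where 2.37% of all genes were called, 1.21% higher and 1.15% lower. In no member were the fed genotypes without overlap, against 1.07% of all genes. Markers of other cells differed between the same groups, with 0 of 7 Kupffer cell, 1 of 5 lymphocyte, 1 of 6 stellate cell and 0 of 7 proliferating cell markers called higher in WT/Y657* mice. The Kupffer cell markers summed to 233, 275 and 328 CPM in WT and 221, 495 and 781 CPM in WT/Y657* mice and the lymphocyte markers to 10.5, 13.5 and 18.3 CPM and 13.1, 21.6 and 45 CPM. None of the 7 hepatocyte markers was called, and their mean centred log2 CPM was 0.12 ± 0.089 in WT and -0.040 ± 0.071 in WT/Y657* mice (mean ± SD, n = 6). The WT/Y657* group was the more spread for the immune cells, and their part in the result was not tested. Nop16 was at 22.9, 25.2 and 29.3 CPM in WT and 18.1, 21.1 and 24.3 CPM in WT/Y657* mice, with overlap (log2 fold change -0.29, SE 0.074, adjusted p = 0.0282). Its adjusted p ranged from 0.0107 to 0.996 over the alternatives, the highest being with blocks of neighbouring mouse numbers, of which the lowest held WT mice alone and the highest WT/Y657* mice alone. The fed genotypes were therefore compared partly across blocks of mouse numbers. The median of the members was -0.077 and 39 of 50 were negative, but with scaling by library size alone, which moved the median of all genes to 0.11, the median of the members was 0.026, 28 were positive, and Rrp1, higher in WT/Y657* mice, was called in place of Nop16. In refed mice no member was called, where 0.0287% of all genes were called by edgeR, 0.0215% higher and 0.00717% lower. No member was without overlap between the refed genotypes, against 0.624% of all genes. Of the members 9 had an unadjusted p below 0.05 (18%, against 9.53% of all genes), and 40 of 50 were positive, with a median of 0.11. Apart from the genotype difference in fasting given above, the other genotype comparisons had smaller such shares in the members than in all genes. They were 20% against 27.29% in fasted mice, 12% against 17.38% in fed mice and 8% against 15.51% for the genotype difference in refeeding. DESeq2 called no member in refed mice either.

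The response to refeeding differed between genotypes for 1 member, where 2.06% of all genes were called, 1.46% lower and 0.595% higher. Nop10 rose on fasting and fell on refeeding in WT/Y657* mice and was called in neither contrast in WT mice, and the difference of the refeeding responses was -0.41 (SE 0.10, adjusted p = 0.0324). Over the alternatives its adjusted p ranged from 0.0172 to 0.0966. The call was lost under 12 of 34, among them library size scaling, no filter and the exon length correction. The median difference of the members was 0.011, against 0.015 over all genes, and 26 of 50 were positive.

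Averaged over the 50 members in each mouse, log2 CPM relative to the mean of each gene in the 36 mice gave 0.050 ± 0.054 in fed, -0.18 ± 0.055 in fasted and 0.081 ± 0.14 in refed WT mice (mean ± SD, n = 6). In WT/Y657* mice the values were -0.040 ± 0.091, -0.10 ± 0.058 and 0.20 ± 0.076. Fasted WT mice ranged from -0.28 to -0.11 and refed WT mice from -0.068 to 0.27, so that refed WT mice were the most spread group and all were above the fasted ones. Refed WT/Y657* mice ranged from 0.11 to 0.30, above every fed or fasted mouse of that genotype. Within the low and the high series, WT/Y657* mice were above WT mice by 0.083 and 0.078 when fasted and by 0.16 and 0.069 when refed.

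**Figure D5:**
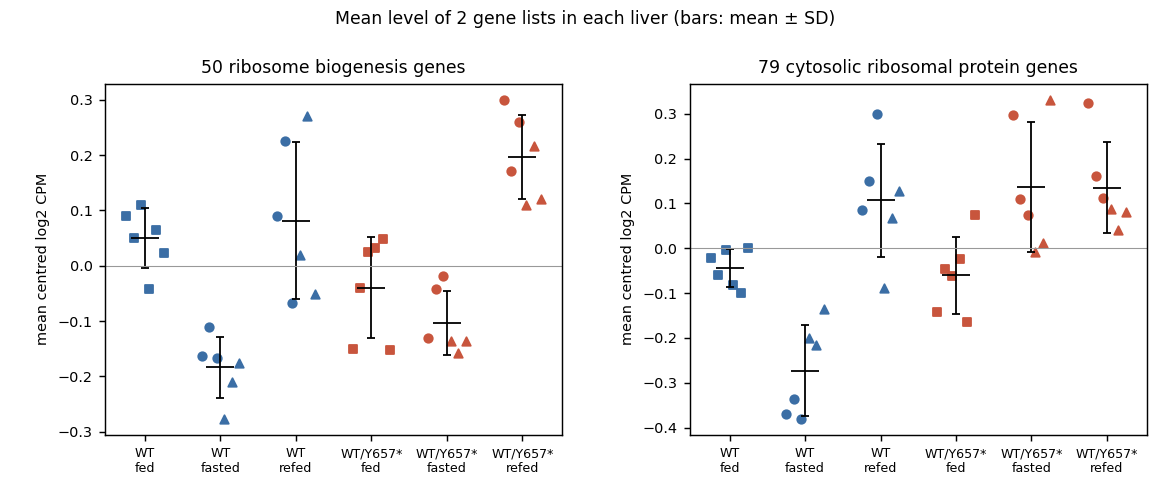
Mean over the listed genes of log2 CPM minus each gene's mean in 36 livers (vertical axis) for each mouse, by group (horizontal axis), for the 50 members (left) and for 79 cytosolic ribosomal protein genes (right). Squares are fed mice, circles and triangles are mice of the low and high series of mouse numbers, and bars are the mean ± SD of 6. On the left both fasted groups lie below 0, whereas on the right the WT fasted group lies below 0 and the WT/Y657* fasted group has a mean of 0.14.

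The genes that encode the ribosomal proteins themselves fell on fasting and rose on refeeding in WT mice, while in fasted WT/Y657* mice they mostly rose. Of 79 cytosolic ribosomal protein genes, 48 fell and none rose on fasting in WT mice, and 73 rose on refeeding. Over all genes 17.5% fell and 14.5% rose on fasting in WT mice, and 16.5% rose on refeeding. In WT/Y657* mice 49 rose and 3 fell on fasting, and 6 rose and 3 fell on refeeding. Over all genes these shares were 15.2% and 17.7% on fasting and 17.1% and 14.2% on refeeding. In fasted liver 69 of the 79 were higher in WT/Y657* than in WT mice, with a median of 0.41, where the median of the members was 0.10, and this difference was known when the list was chosen. The mean of the ribosomal protein genes per mouse was -0.27 ± 0.10 in fasted WT and 0.14 ± 0.14 in fasted WT/Y657* mice. Over all genes 6.43% were called higher in fasted WT/Y657* than in fasted WT mice. The response of the ribosomal protein genes to fasting differed between genotypes in 54 of 79 genes and their response to refeeding in 38. This compares with 0 and 1 of the 50 members, and with 4.35% and 2.06% of all genes. Rpl41 was at 66.4 ± 4.3 CPM (mean ± SD) in fasted WT and 109.7 ± 14.2 CPM in fasted WT/Y657* mice (log2 fold change 0.72, SE 0.088, adjusted p = 4.49e-06), and Rps21 at 62.9 ± 5.72 CPM and 102 ± 18.4 CPM (log2 fold change 0.69, SE 0.089, adjusted p = 6.09e-06). On fasting in WT mice, Rpl12 fell from 105 ± 5.97 CPM to 64.9 ± 7.45 CPM (log2 fold change -0.69, SE 0.094, adjusted p = 2.8e-07) and Rplp0 by 0.41 (adjusted p = 3.21e-06), and on refeeding Rpl12 rose by 0.84 (adjusted p = 1.25e-08). Many of these genes have processed pseudogenes that can share reads with them.

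Of the rest of the biogenesis pathway, 129 tested genes not among the members, 42 were called on fasting in WT mice (32.6%, against 32% of all genes), 35 lower and 7 higher. In WT/Y657* mice 32 were called on fasting (24.8%, against 32.9%), 20 lower and 12 higher. These shares were near or below those of all genes. On refeeding 58 were called in WT mice (45%, against 30.2%), 54 higher and 4 lower, and 63 in WT/Y657* mice (48.8%, against 31.3%), 58 higher and 5 lower. The medians on refeeding were 0.21 and 0.24. Against fed mice, 27 were higher and 4 lower in refed WT mice, where 13.2% of all genes were higher and 14.3% lower. In refed WT/Y657* mice 40 were higher and none lower, against 13% and 13.1% of all genes. In fasted liver 11 were higher and 4 lower in WT/Y657* mice, against 6.43% and 6.63%. Called differences of the response between genotypes numbered 3 for fasting and 2 for refeeding, against 4.35% and 2.06% of all genes. Counting both directions, the share called was below that of all genes in each of these except refed against fed WT/Y657* mice.

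Among the small subunit factors outside the members, 17 of 42 rose on refeeding in WT mice, where 16.5% of all genes rose. Pno1, a late factor of the small subunit, rose from 24.3 ± 1.82 CPM to 35.2 ± 2.25 CPM (log2 fold change 0.53, SE 0.072, adjusted p = 4.75e-07), and Nol7 from 25.3 ± 2.03 CPM to 35.2 ± 3.56 CPM (log2 fold change 0.48, SE 0.077, adjusted p = 9.64e-06). On fasting in WT mice Utp6 fell by 0.41 (SE 0.070, adjusted p = 1.76e-05) and Bms1, a GTPase of the processome, by 0.41 (SE 0.076, adjusted p = 4.53e-05). Emg1, a methyltransferase of the 18S RNA, was at 34.9 ± 4.76 CPM in fasted WT and 45.2 ± 5.21 CPM in fasted WT/Y657* mice (log2 fold change 0.37, SE 0.083, adjusted p = 0.00246), and Ngdn at 13.4 ± 1.18 CPM and 17.6 ± 1.4 CPM (log2 fold change 0.39, SE 0.091, adjusted p = 0.00368).

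Of 46 further large subunit factors, 14 fell on fasting and 21 rose on refeeding in WT mice, against 17.5% and 16.5% of all genes. Mdn1, the giant AAA ATPase that strips factors from the large subunit, went from 44.1 ± 5.22 CPM fed to 25.5 ± 2.21 CPM fasted (log2 fold change -0.79, SE 0.14, adjusted p = 4.05e-05). Ddx54, an RNA helicase, fell by 0.38 (SE 0.066, adjusted p = 1.74e-05). Gtpbp4 rose on refeeding from 30.1 ± 2.78 CPM to 49.7 ± 6.5 CPM (log2 fold change 0.73, SE 0.11, adjusted p = 4.11e-06) and Mak16 by 0.59 (SE 0.11, adjusted p = 5.51e-05). In fasted liver Mak16 was higher in WT/Y657* mice by 0.37 (SE 0.11, adjusted p = 0.0197), and the gene listed as Eftud1, a GTPase of late large subunit maturation, was lower there (log2 fold change -0.39, SE 0.10, adjusted p = 0.00773).

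The RNA exosome, which trims ribosomal RNA precursors, had 10 of 13 genes higher on refeeding in WT mice and 9 in WT/Y657* mice. Over all genes 16.5% and 17.1% were higher. Exosc8 went from 4.75 ± 0.894 CPM to 8.54 ± 1.14 CPM in WT mice (log2 fold change 0.84, SE 0.14, adjusted p = 2.03e-05), and Exosc2 rose by 0.44 (SE 0.081, adjusted p = 5.48e-05). On fasting in WT mice the helicase listed as Skiv2l2 fell by 0.39 (SE 0.074, adjusted p = 6.93e-05) and the nuclease Exosc10 by 0.43 (SE 0.10, adjusted p = 0.0006). Exosc8 and C1d were higher in fasted WT/Y657* than in fasted WT mice, by 0.48 (adjusted p = 0.0243) and 0.26 (adjusted p = 0.0349).

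The remaining RNA polymerase I genes did not move as 1 group. Of 16, 2 fell and 2 rose on fasting in WT mice, where 17.5% of all genes fell and 14.5% rose. Ubtf, which opens ribosomal DNA for the polymerase, rose on fasting from 53.2 ± 3.49 CPM to 63.3 ± 3.79 CPM (log2 fold change 0.25, SE 0.076, adjusted p = 0.01) and fell to 46.9 ± 2.52 CPM on refeeding (log2 fold change -0.43, SE 0.076, adjusted p = 3.54e-05), opposite to most members. Polr1e fell by 0.71 on fasting (SE 0.18, adjusted p = 0.00253). Polr1d was at 25.3 ± 3.48 CPM in fasted WT and 35.3 ± 4.04 CPM in fasted WT/Y657* mice (log2 fold change 0.48, SE 0.082, adjusted p = 0.000136) and rose by 0.32 on refeeding in WT mice (adjusted p = 0.00228), and Polr2e, shared by RNA polymerases I, II and III, differed in the same direction by 0.42 (adjusted p = 0.00676).

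Of 12 further proteins of small nucleolar ribonucleoproteins and their assembly, the gene listed as Nhp2l1, which binds box C/D RNAs, fell by 0.27 on fasting (SE 0.075, adjusted p = 0.0049) and rose by 0.45 on refeeding in WT mice (SE 0.074, adjusted p = 1.02e-05). Ruvbl2, an ATPase that helps to assemble the particles, fell by 0.50 (adjusted p = 0.000901) and rose by 0.47 (adjusted p = 0.00194). None of the 12 was called by genotype in fasted liver, where Znhit3 had 0.37 (adjusted p = 0.0614) and Shq1 -0.31 (adjusted p = 0.228). The 3 tested noncoding genes that host small nucleolar RNAs were all higher in fasted WT/Y657* mice and all fell on refeeding in these mice. Snhg3 was at 2.93 ± 0.627 CPM in fasted WT and 7.38 ± 2.53 CPM in fasted WT/Y657* mice (log2 fold change 1.33, SE 0.21, adjusted p = 4.75e-05), and Snhg12 at 5.86 ± 1.12 CPM and 9.12 ± 1.39 CPM (log2 fold change 0.64, SE 0.14, adjusted p = 0.0023). In WT mice Gas5 rose on fasting by 0.39 (SE 0.081, adjusted p = 0.000284), Snhg12 had 0.31 (adjusted p = 0.102), and on refeeding Gas5 had 0.16 (adjusted p = 0.131) and Snhg3 0.29 (adjusted p = 0.31).

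Translation initiation factors, the users of finished ribosomes, had 13 of 37 lower and 3 higher on fasting in WT mice, and 17 higher and 4 lower on refeeding. Over all genes 32% were called on fasting and 30.2% on refeeding in WT mice. Eif2s1, the α subunit of eIF2, fell by 0.47 (adjusted p = 2.31e-06) and rose by 0.67 (adjusted p = 5.31e-09). Eif3b fell by 0.42 on fasting (adjusted p = 9.63e-06) and Eif2b3, a subunit of the exchange factor of eIF2, rose by 0.95 on refeeding (adjusted p = 8.03e-08). In fasted liver Eif4b was lower in WT/Y657* mice (-0.34, adjusted p = 0.00293) and Eif3e higher (0.23, adjusted p = 0.00615). Of 11 tested genes of the MYC network, a known regulator of ribosome biogenesis, 2 fell and 1 rose on fasting in WT mice. This share was below the 32% of all genes called there. Values are given only for genes of smallest p, and the result of Myc itself is not among them. The genes called on fasting are as follows. They included Mlx (-0.63, adjusted p = 2.51e-09) and Mga (-0.39, adjusted p = 0.00138), both lower. On refeeding Mlx rose by 0.55 (adjusted p = 8.03e-08) and Mxd4 fell by 0.44 (adjusted p = 8.15e-06). None of the 11 was called by genotype in fasted liver, with adjusted p of 0.156 for Mxd3 and 0.316 for Mlx. The paper's prediction of upstream regulators, a different measure, gave upregulated Myc and Mycn patterns in fasted WT/Y657* liver.

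Of the 11 members with an E-box, Nle1 and Pes1 were called in no comparison. The 7 members called in none of the 11 comparisons were Gar1, Rrp1, Rrs1, Pes1, Noc3l, Imp3 and Nle1. The remaining 43 members were called in at least 1 comparison, and the share of all genes for which this held was not counted.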

How the data were processed

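Liver RNA of 36 mice was sequenced from stranded total RNA libraries as single reads of 50 bases. The deposited table holds estimated counts per gene that the authors made without pooling mice. Per the labels, Cuffdiff, featureCounts, SAMtools and edgeR were used, with no versions, and the build named is mm9, yet the locus of every member overlaps its gene in GRCm38 (GENCODE M21), so no coordinates were taken from the table. Whether counting used strand is not given in the sources used here, and 23 members have exons that overlap a gene on the other strand. A second deposited table, of fitted values, was not used.

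Estimated counts were rounded, since 3.29% of those above 0 were not whole (tolerance 1e-06), scaled by TMM and fitted with edgeR 4.0.16 (R 4.3.3) on all 36 libraries, 1 coefficient per group, after filterByExpr. Each contrast was tested with the quasi-likelihood F test of edgeR, p was adjusted over 13945 genes by the Benjamini-Hochberg method, and the SE is the one implied by the F statistic. The common biological coefficient of variation was 0.181. Totals of 8839488 to 19542775 counts leave few reads for genes near 1 CPM. The script was tested on simulated data. The mouse was the replicate.

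Members and lists were chosen with earlier results of these data known. Named were, per comparison, up to 4 called members of smallest p in each direction, the member of smallest p in each role for fasted genotypes and for fasting in WT mice, Ncl, Npm1, Fbl, Dkc1, Nop56, Polr1a, Polr1b, Pprc1 and Bop1, and the 2 genes of smallest p in each related list. For the last, mean and SD are given for some and the fit for all but 1 gene, which is not reported here. Rrp9, Rrp12, Wdr12, Pes1 and Utp20 against fed mice were also named, after their values were seen. Alternatives were limma-voom 3.58.1, DESeq2 1.42.0, edgeR's likelihood ratio test, other scalings and filters, fewer libraries, the series of mouse numbers and exon length. Promoters came from RefSeq.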

Additional observations from a re-analysis of the deposited data

Results flagged for a closer look

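In the 28 members whose tests are described gene by gene, 168 groups of 6 mice were searched for a single mouse far from the rest, with 6 groups for the mean of the 50 members. Of these 174 groups 7 held one (4.02%), where chance alone gives about 1 in 20 groups. Bop1 was at 32.7 CPM in 1 fasted WT/Y657* mouse, against 25.5 to 26.9 CPM in the other mice of the group. Nolc1 was at 32.9 CPM in 1 fed WT mouse, against 24.6 to 27.7 CPM, and Rrp12 at 10.9 CPM in 1 fasted WT mouse, against 7.67 to 8.84 CPM. The others lay below their groups. Fbl was at 8.07 CPM in 1 fed WT/Y657* mouse, against 9.46 to 10.1 CPM, and Gnl3 at 18.1 CPM in another fed WT/Y657* mouse, against 28 to 32.8 CPM. Rrp12 was at 7.75 CPM in 1 fed WT/Y657* mouse, against 11.3 to 12.5 CPM. Pprc1 was at 5.02 CPM in 1 fasted WT mouse, against 6.24 to 6.98 CPM.

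The response of Nop10 to refeeding differed between genotypes by -0.41 on the log2 scale in the interaction test, with a fall in WT/Y657* mice and no call in WT mice. The call of this difference was lost under 12 of 34 alternatives.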

How the results depend on the processing

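Of 105 member counts from 11 comparisons under the alternatives other than leaving out 1 mouse, 93 were within 1.5 times of the reported count. Genotype in fasted mice gave 3 calls with limma-voom and 3 with no filter on low counts, in place of 5. Refed against fed WT mice gave 14 calls with library size scaling, in place of 9. Genotype in fed mice gave 0 calls with no filter, with only the groups compared and with blocks of mouse numbers, and 2 with DESeq2, in place of 1. The genotype difference in fasting gave 2 calls with DESeq2 and 2 with at least 10 counts in every library, in place of 0. The genotype difference in refeeding gave 0 with library size scaling, with no filter and with the exon length correction chosen after seeing the data, in place of 1.

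Leaving out 1 mouse at a time gave 2 to 5 calls for genotype in fasted mice (2 without the WT/Y657* mouse ONF_MT_827, and 3 without ONF_MT_826, ONF_MT_923 or the WT mice ONF_WT_824, ONF_WT_825, ONF_WT_919 or ONF_WT_920), 0 to 3 in fed mice (0 without ALC_WT_847, ALC_WT_848, ALC_MT_866, ALC_MT_868 or ALC_MT_869, 2 without ALC_WT_850 or ALC_WT_860, and 3 without ALC_MT_857), 0 to 0 in refed mice, 19 to 23 for fasting in WT, 6 to 10 for fasting in WT/Y657*, 18 to 27 for refeeding in WT, 26 to 31 for refeeding in WT/Y657*, 6 to 10 for refed against fed WT, 15 to 23 for refed against fed WT/Y657*, 0 to 1 for the genotype difference in fasting (1 without any of 7 of 24 mice) and 0 to 1 for that in refeeding (0 without any of 9 of 24 mice). Fbl between fasted genotypes ranged from -0.056 (adjusted p = 0.818, edgeR), a change of sign without ONF_MT_826, to 0.12. Of 562 fits of named members under other planned settings, 531 kept direction and side of the threshold and 31 lost their call. Of 804 fits without 1 mouse, 731 did so, and 72 lost their call. The cause was not tested. No paired analysis was possible because the labels number each mouse once. Depth limits Gar1, with 5 to 43 counts.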
